A study of Mus musculus with 9 samples.

Results

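Chromosome 4 between 100 and 150 Mb (build mm9) was examined as a 50 Mb stretch of the mouse genome in PRO-seq libraries of erythroid cells. It holds 1567 of the 42114 entries in the deposited table of dREG peaks, with starts from 100 Mb to below 150 Mb, and these entries belong to 979 of 26991 peaks. Each entry is called an element here, whether it is a whole peak or the reads of 1 strand of a peak, so elements of 1 peak share their source. The domain also takes in the genes that the authors' table names at a transcription start inside it: 359 names, of which 356 have a gene-body row whose start lies on this chromosome. The domain was chosen by measured values of these libraries, the lower counts of its elements in G1E-ER4 than in G1E cells, so the difference between the lines is given as a description and without a test.

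PRO-seq maps RNA polymerase that is actively transcribing, by letting it add labelled nucleotides in a run-on reaction. dREG finds peaks where polymerase starts on both strands, at promoters and at enhancers. G1E is a mouse erythroid line that lacks GATA1, the transcription factor that red cell precursors need in order to mature, and it stops as an immature precursor. G1E-ER4 carries GATA1 fused to the hormone-binding part of the oestrogen receptor, and estradiol lets the fusion protein act in the nucleus.

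G1E-ER4 cells were sampled after 0 h in 3 libraries, after 13 h in 2 and after 24 h in 2, with estradiol at 100 nM, and untreated G1E cells in 2 libraries. All cells grew with erythropoietin and with medium holding kit ligand. The labels describe 1 line of each kind, so the GATA1 fusion cannot be told apart from any other difference between the lines. Whether replicates were grown as separate cultures is not stated either, and a p-value here therefore covers the spread among these libraries alone.

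The 9 libraries held 15394427 to 59952454 reads in elements and 37830789 to 139945759 reads in gene bodies. Levels are given as CPM, read counts scaled to library size with TMM factors over all rows of a table, and a gene's level is that of its gene body unless an element is named. Gata1 gene-body reads reached 164 to 301 CPM in the libraries of both lines, so they do not check the labels. All 8 erythroid markers reached 1 CPM, and their summed level was 828 to 847 CPM at 0 h, 1036 to 1231 CPM at 13 h and 2409 to 2680.1 CPM at 24 h, against 986 to 1296 CPM in G1E. Among them, Tal1 (236 to 685 CPM over the libraries) and Ermap (178 to 512 CPM) are genes of the domain. The difference of this sum between 0 h and G1E is therefore not separate from the contrast that chose the domain, and nothing is read from it. Of the 4 monocyte and macrophage markers found, Cd68 alone reached 1 CPM, and the list's sum was 125 to 198 CPM at 0 h, 78.5 to 107 CPM at 13 h and 31.9 to 38.3 CPM at 24 h, against 95.0 to 157 CPM in G1E. The part of these markers in the results below was not tested. The summed lymphocyte, granulocyte, fibroblast, epithelial and endothelial markers stayed at or below 9.76 CPM in every library. In bulk libraries, fewer cells of a type and less RNA synthesis per cell cannot be told apart.

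This stretch carries Tal1, a transcription factor that blood formation depends on, and genes of red cell structure and haem synthesis such as Rhd, Epb4.1 and Urod. GATA1 binds short motifs around the letters GATA, and erythroid Krüppel-like factors bind C-rich boxes. The 300 bases around the start (250 before, 50 after, RefSeq, GRCm38.p6) are printed for 5 genes that show the main patterns of the domain. Rhd (chr4:134864286-134864585, plus strand), Urod (chr4:116994364-116994663, minus strand) and Dhrs3 (chr4:144892577-144892876, plus strand, the first of its entries) rose under estradiol, Tal1 (chr4:115056176-115056475, plus strand, the first of its entries) was lower at 13 h but not at 24 h, and Id3 (chr4:136143572-136143871, plus strand) fell. Capitals mark the words searched on either strand: AGATAA, the same word with a last G written AGATAG, and both with a leading T, which are TGATAA and likewise TGATAG.
Rhd: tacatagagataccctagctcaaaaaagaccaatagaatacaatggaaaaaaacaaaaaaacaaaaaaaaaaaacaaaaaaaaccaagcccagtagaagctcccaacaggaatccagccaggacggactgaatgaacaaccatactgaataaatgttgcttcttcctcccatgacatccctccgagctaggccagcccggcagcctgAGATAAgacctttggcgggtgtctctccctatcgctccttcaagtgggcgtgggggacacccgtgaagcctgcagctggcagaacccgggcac
Urod: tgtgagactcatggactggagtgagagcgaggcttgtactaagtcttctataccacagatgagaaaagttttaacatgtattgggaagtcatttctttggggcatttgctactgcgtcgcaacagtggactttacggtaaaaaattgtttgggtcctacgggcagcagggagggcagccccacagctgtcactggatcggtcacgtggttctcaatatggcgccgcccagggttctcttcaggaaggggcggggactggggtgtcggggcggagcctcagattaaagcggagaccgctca
Dhrs3: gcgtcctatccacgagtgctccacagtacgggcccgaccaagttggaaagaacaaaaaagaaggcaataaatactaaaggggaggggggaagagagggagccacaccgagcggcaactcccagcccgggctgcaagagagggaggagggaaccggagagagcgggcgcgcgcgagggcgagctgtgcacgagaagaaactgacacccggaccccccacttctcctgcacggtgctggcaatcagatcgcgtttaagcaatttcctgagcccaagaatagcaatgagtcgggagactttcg
Tal1: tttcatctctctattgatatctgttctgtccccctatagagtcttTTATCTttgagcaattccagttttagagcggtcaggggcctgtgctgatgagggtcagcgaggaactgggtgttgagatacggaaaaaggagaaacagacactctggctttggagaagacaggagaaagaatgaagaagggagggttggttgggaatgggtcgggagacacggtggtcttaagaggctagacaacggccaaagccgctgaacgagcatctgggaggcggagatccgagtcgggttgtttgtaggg
Id3: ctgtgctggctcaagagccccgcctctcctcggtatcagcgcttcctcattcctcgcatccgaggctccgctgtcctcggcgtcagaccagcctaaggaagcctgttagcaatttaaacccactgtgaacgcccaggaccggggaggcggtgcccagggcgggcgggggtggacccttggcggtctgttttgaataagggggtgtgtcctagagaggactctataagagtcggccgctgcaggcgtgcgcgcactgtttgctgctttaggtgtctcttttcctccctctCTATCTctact
The windows of Rhd, Tal1 and Id3 hold 1 such match each, and those of Urod and Dhrs3 hold none. Among 402 promoter entries of 304 genes of the domain, 16.2% hold at least 1 GATA match, against 29.8% of all 32851 mouse promoter entries. The C-rich letters CCNCNCCC, on either strand, are in 70.9% of them and in 49.5% of all entries. The domain's genes were taken because they have a dREG peak at their start, while the set of all entries was not chosen so. No comparison with other genes that have such a peak was made, so neither difference is read as a trait of the domain. Among the domain's genes called higher at 24 h than at 0 h, 16.1% of 149 entries hold a GATA match, and among those called lower 16.4% of 122 entries do. A match describes the letters of a window and is not a binding site.

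Before estradiol, elements of the domain were lower in G1E-ER4 than in G1E as a broad, shallow shift. The median log2 fold change over its 1327 elements that passed the filter on low counts was -0.36, a level 0.782 times that of G1E, with quartiles of -0.91 and 0.06. Of these, 959 (72.3%) lay below 0. The 978 elements of the rest of chromosome 4 had a median of -0.00, with 50.3% below 0. Of the domain's elements, 79 passed an adjusted p of 0.05 in edgeR upwards and 258 downwards, where over all elements 7.18% were called higher and 12.1% lower. Nothing is read from that count, since this contrast chose the domain.

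Gene bodies showed the same shift with less scatter. The median over the domain's 346 tested genes was -0.42, a level 0.749 times that of G1E, and 303 of them (87.6%) lay below 0. The 282 tested genes of the rest of the chromosome had a median of 0.02, with 46.5% below 0. The shift was not limited to weakly transcribed genes: over 4 classes of gene level, from the lowest to the highest, its median was -0.79, -0.47, -0.36 and -0.42 in the domain. All 10 tested genes of the red cell and haem list lay below 0 in this contrast, and so did 22 of 23 ribosome and RNA processing genes. Metabolism genes had 15 of 17 below 0, and transcription factors were the lowest list, with 10 of 13. With 87.6% of all the domain's genes below 0, nothing is read from these counts about a role.

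The shift ran through the whole stretch and had no sharp edge on the low side. All 8 windows of 5 Mb in the domain with at least 10 genes had a median below 0, between -0.58 and -0.24, against 4 of 8 such windows in the rest of the chromosome, which lay between -0.18 and 0.34. Genes starting from 80 to 100 Mb had a median of -0.39 (25 genes), close to that inside the domain, while genes below 80 Mb had a median of 0.06 (200 genes) and those from 150 Mb one of -0.15 (57 genes). The elements from 80 to 100 Mb had a median of -0.62 (137 elements), lower than that of the domain itself. Among 181 windows of 10 Mb over the genome with at least 20 genes, the 5 windows of the domain ranked 3, 4, 7, 9 and 10 from the lowest median, and a window of chromosome 1 was lowest, at -0.63. The opposite was seen on chromosome 2 from 160 Mb, where 124 genes had a median of 0.64.

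**Figure D1:**
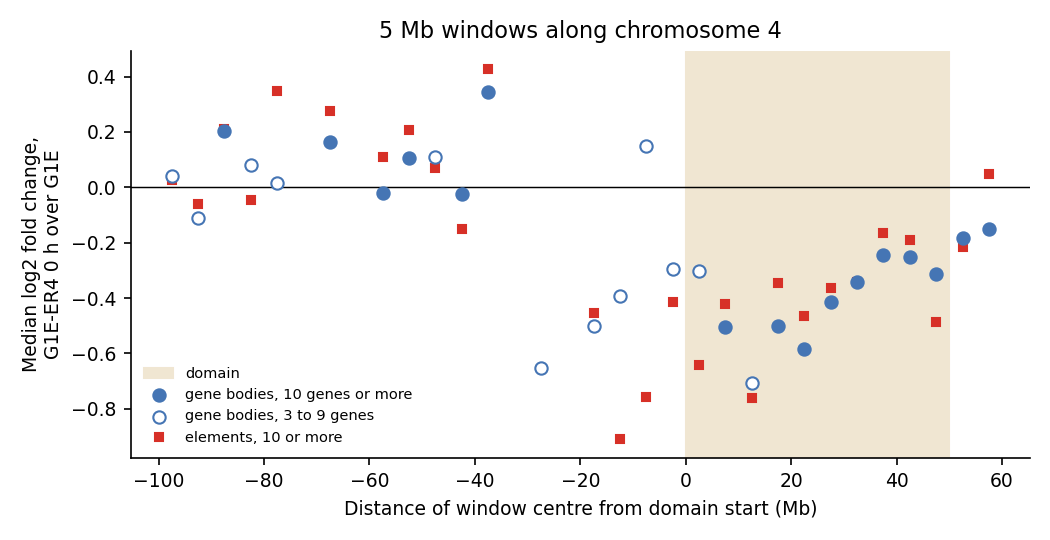
Median log2 fold change of G1E-ER4 at 0 h over G1E in 5 Mb windows along chromosome 4, for elements (squares) and gene bodies (circles, open for windows with under 10 genes), with the domain shaded. The x axis gives the distance of each window's centre from the start of the domain in Mb. The 8 domain windows with enough genes lie between -0.58 and -0.24 for gene bodies.

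At the lower edge, the last genes outside were Alg6 (-0.55), Efcab7 (-0.26), Itgb3bp (-0.21) and Pgm2 (-0.33), and the first inside were Jak1 (-0.46), Leprot (0.25), Mier1 (-0.43) and Wdr78 (-0.36), all as log2 fold changes of 0 h over G1E. At the upper edge, the last inside were Spsb1 (-4.46), H6pd (-3.89), Eno1 (-0.76) and Rere (-0.55), and the first outside were Park7 (-0.03), Per3 (0.72), Vamp3 (-0.01) and Camta1 (-0.27). The 4 elements just inside the lower edge, at Cachd1, had fold changes of -2.96 to -1.08 and the 4 just outside, at Pgm2 and Ror1, of -3.65 to 1.45. The 4 just inside the upper edge, at Rere, had -1.03 to 0.20 and the 4 just outside, at Slc45a1, had -3.15 to 0.27.

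**Figure D2:**
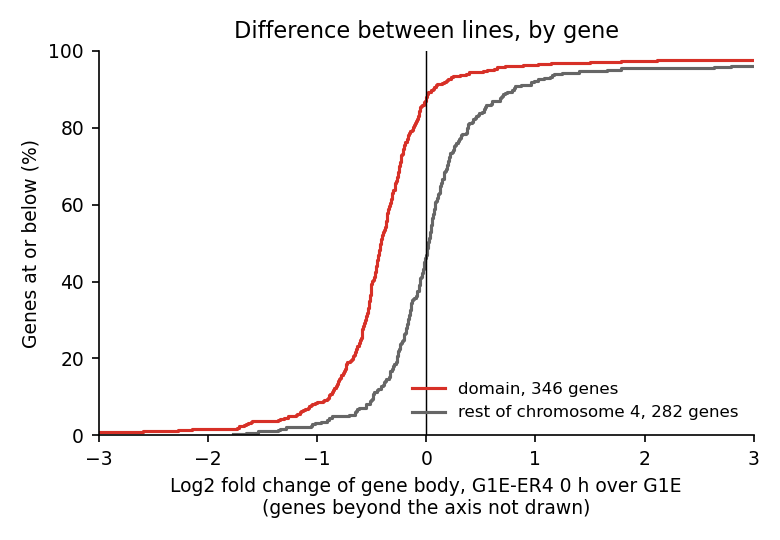
Cumulative share of genes (y axis, percent) against the log2 fold change of G1E-ER4 at 0 h over G1E (x axis), for the domain and the rest of chromosome 4. The domain's curve lies to the left of the other, with 87.6% of its genes below 0.

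By location, intergenic elements of the domain had the lowest median, -0.69, but intergenic elements were also low in the rest of the chromosome (-0.33) and over the genome (-0.32). Elements at transcription starts had a median of -0.26, against 0.11 in the rest of the chromosome. Those lying sense in genes had -0.46, against -0.08, and those lying antisense -0.37, against -0.09. The makeup of the domain was close to that of the whole table: 470 of its elements lay at transcription starts and 464 (29.6%) between genes, against 31.3% and 32.7% of all elements.

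Against this shallow background, single genes differed far more between the lines. H6pd, an enzyme that makes NADPH in the endoplasmic reticulum, had 6.34, 7.11 and 5.67 CPM in G1E-ER4 at 0 h and 88.7 and 101 CPM in G1E, 14.9-fold lower. Pla2g5, a secreted phospholipase, had 60.0, 67.3 and 82 CPM at 0 h, against 379.9 and 295 CPM in G1E. In both genes the groups did not overlap.

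Other genes stood higher in G1E-ER4, against the direction of the domain. Cda, cytidine deaminase, had 2.54, 3.29 and 3.96 CPM at 0 h and 0.0401 and 0.0242 CPM in G1E, and Slc30a2, a zinc transporter, had 26.3, 28.3 and 30.4 CPM at 0 h and 1.15 and 0.58 CPM in G1E. Foxd2os had 16.8, 13.2 and 14 CPM at 0 h and no read in G1E, at least 691-fold higher when 3 reads over the group stand in for 0. Foxd2, its neighbour at the same start peak, had 1.36, 2.41 and 1.35 CPM at 0 h and also no read in G1E, and since the files do not say whether gene-body counts use strand, the reads of these neighbours may not be separate.

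Reads in the domain's elements were set against reads in the other elements of chromosome 4 within each library, which needs no scaling between libraries. The ratio was 1.48, 1.61 and 1.63 at 0 h, 1.59 and 1.69 at 13 h and 1.67 and 1.69 at 24 h, against 1.99 and 1.97 in G1E. Every G1E-ER4 library lay below both G1E libraries. The mean was 1.57 ± 0.0779 at 0 h, 1.64 ± 0.0699 at 13 h and 1.68 ± 0.0116 at 24 h, against 1.98 ± 0.0207 in G1E (SD, n = 3, 2, 2 and 2). The log2 difference of 0 h from G1E was -0.33 and gets no test. For the 4 libraries of 13 h and 24 h, which are not in the contrast that chose the domain, the difference from G1E was -0.25. That comparison still uses the G1E libraries on which the domain was chosen, so it is given without a test.

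Between times within G1E-ER4, the ratio differed little in elements, where the 0 h libraries are among those on which the domain was chosen as low. It differed by 0.06 on the log2 scale at 13 h from 0 h (exact two-sided permutation p = 0.6) and by 0.10 at 24 h from 0 h (exact p = 0.2), where 0.2 is the smallest p possible with 2 and 3 libraries. The 24 h libraries lay above all 0 h libraries, and the 13 h libraries overlapped them. Between the pair of libraries whose title numbers start with 15 the difference of 13 h from 0 h was 0.10, between the pair starting with 16 it was 0.07, and among those starting with 18 the difference of 24 h from 0 h was 0.05. In gene bodies the ratio was 1.54 and 1.59 at 13 h and 1.63 and 1.52 at 24 h, against 1.30, 1.33 and 1.32 at 0 h and 1.75 and 1.74 in G1E, so there the 0 h libraries stood apart from all later ones. The 13 h difference from 0 h in gene bodies was 0.24 on the log2 scale (exact p = 0.2). Since the 0 h libraries helped to choose the domain as low, a rise from 0 h was favoured in advance. These permutation tests also ignore any pairing of libraries. They therefore cannot decide whether the ratio changed, and nothing is read from their p-values.

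**Figure D3:**
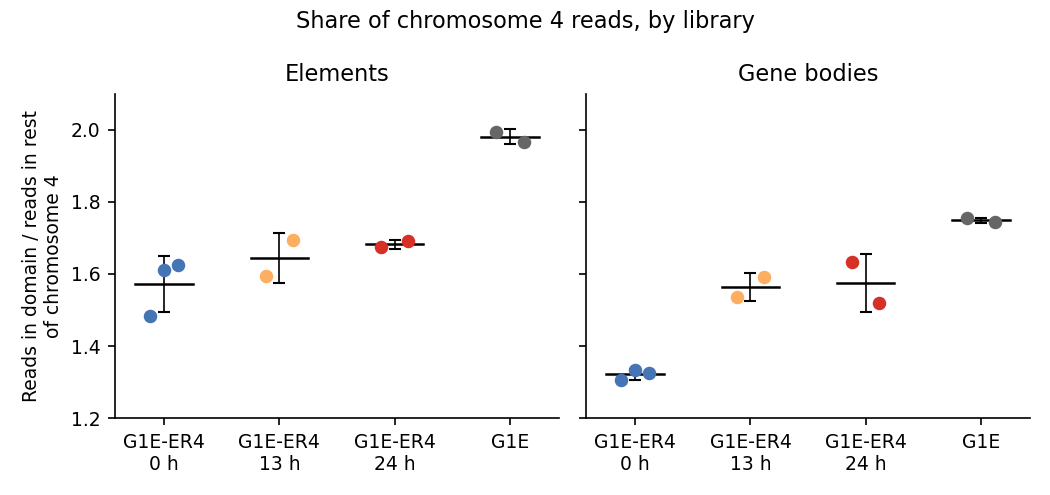
Ratio of reads in the domain to reads in the rest of chromosome 4 in each library (points) with the group mean (line) and SD (bars), for elements and for gene bodies, at 0 h, 13 h and 24 h of G1E-ER4 and in G1E; the y axes do not start at 0. The G1E libraries lie highest, at 1.97 and 1.99 for elements and 1.74 and 1.75 for gene bodies.

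The median fold change to G1E stayed below 0 after estradiol. Over the domain's genes it was -0.32 at 13 h and -0.25 at 24 h, and over the rest of the chromosome -0.00 and 0.10. Over elements it was -0.29 at 13 h and -0.26 at 24 h in the domain, and -0.18 and -0.27 in the rest, so at 24 h the medians of the domain's elements and of the rest lay close together.

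Within G1E-ER4, estradiol changed many elements and genes of the domain in both directions. At 13 h against 0 h, 254 of 1327 elements rose (19.1%, against 15.2% of all elements) and 207 fell (15.6%, against 18.6%), by edgeR at an adjusted p of 0.05. At 24 h against 0 h, 384 rose (28.9%, against 22.7%) and 348 fell (26.2%, against 29.5%). At 24 h against 13 h, fewer passed: 78 rose (5.88%, against 5.28%) and 106 fell (7.99%, against 7.82%). The title numbers of the 13 h libraries start with 15 and 16, and those of the 24 h libraries with 18. In every result of 24 h against 13 h, time therefore cannot be told apart from any difference that goes with these numbers. The same holds for the values of 13 h against G1E above, since the G1E title numbers start with 18 and 20. Of the 0 h libraries, only replicate 3 has a title number starting with 18, so results of 24 h against 0 h carry this limit in part. The shares of rises at 13 h and at 24 h lay a few points above those of all elements, and no test was made of that difference. Both comparisons use the 0 h libraries, on which the domain was chosen as low, so rises from 0 h were favoured in advance. Nothing is read from the larger shares of rises, and the same limit applies to the lists by role below. All of these lists were also chosen with earlier results of these data known. Their counts and medians beside those of all genes are therefore descriptions and support no conclusion about a role.

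Among gene bodies, 98 of 346 rose at 13 h (28.3%, against 20.1% of all genes) and 78 fell (22.5%, against 20.9%). At 24 h, 127 rose (36.7%, against 29.0%) and 112 fell (32.4%, against 30.7%). Here too the 0 h libraries are among those that chose the domain, so nothing is read from the larger shares of rises. At 24 h against 13 h, 53 rose (background 11.7%) and 54 fell (background 12.5%). The split depends on the scaling: with library totals in place of TMM, 88 genes rose and 153 fell at 24 h, while the median of all genes moved by -0.39. At 24 h against 13 h, leaving out any 1 library of these times gave fewer calls than the 107 with all libraries. Each such fit leaves 1 library in a group, so the loss cannot show whether the calls rest on single libraries.

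By location, the median at 24 h over 0 h was 0.28 for elements at transcription starts and 0.46 for those sense in genes. It was -0.70 for intergenic elements and -0.05 for antisense ones. Over the whole table the intergenic median was -1.06, the antisense one -0.66, the sense one -0.10 and that at transcription starts 0.14. The limit from choosing the domain on the 0 h libraries applies to these medians as well.

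Of the 10 tested red cell and haem genes of the domain, 5 rose and 1 fell at 13 h (over all genes 20.1% rose and 20.9% fell), and 7 rose and none fell at 24 h (over all genes 29.0% rose and 30.7% fell) by edgeR, with a median log2 fold change of 1.39 at 24 h against -0.07 for all genes. With library totals, 6 rose and 2 fell at 24 h. The erythroid markers summed above share Tal1 and Ermap with this list, so their sum is not separate support for it. Urod, which turns uroporphyrinogen into coproporphyrinogen in haem synthesis, has its start peak at 116665850 (chromosome 4, mm9, as for all peak starts given) and had 6.49, 8.26 and 7.47 CPM at 0 h, 16.6 and 20.8 CPM at 13 h and 33.4 and 37.3 CPM at 24 h, against 12.4 and 9.88 CPM in G1E. Its G1E-ER4 libraries stood in the order of time without overlap, and its log2 fold change was 2.25 ± 0.20 (SE) at 24 h over 0 h, 4.77-fold (edgeR adjusted p = 7.74e-06). The start element of Urod is shared with Hectd3 and rose by 1.93 at 24 h on the log2 scale.

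Rhd, the red cell membrane protein of the Rh blood group, had 16.7, 16.7 and 15.7 CPM at 0 h, 53.1 and 39 CPM at 13 h and 52.6 and 43.3 CPM at 24 h, against 46.1 and 34.6 CPM in G1E. The estradiol libraries lay above all 0 h libraries and overlapped those of G1E, and the rise was 1.49 ± 0.19 (log2, SE) at 13 h (edgeR adjusted p = 0.000208) and 1.55 ± 0.19 at 24 h. Its start peak at 134418850 had 5.99 and 4.71 CPM at 24 h, against 4.63, 3.6 and 4.4 CPM at 0 h, and did not pass (0.34 on the log2 scale, edgeR adjusted p = 0.384), while the sense strand of the peak at 134423150 rose by 1.26.

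Epb4.1, protein 4.1 of the red cell membrane skeleton, has 3 start peaks in the authors' table and had in its gene body 545, 473 and 456 CPM at 0 h, 590.4 and 615 CPM at 13 h and 1881 and 1777 CPM at 24 h, against 924 and 739 CPM in G1E. Its level at 13 h lay just above that at 0 h (0.29 ± 0.13, edgeR adjusted p = 0.0986) and the rise came between 13 h and 24 h (1.60 ± 0.15, edgeR adjusted p = 0.00067). The most-read of its start peaks, at 131628850, had 101, 91.2 and 91.2 CPM at 0 h, 95.5 and 131 CPM at 13 h and 181 and 236 CPM at 24 h, against 127 and 124 CPM in G1E, and rose by 1.14 ± 0.19 at 24 h over 0 h (edgeR adjusted p = 0.000257). The minus strands of the other start peaks, at 131604400 and 131627150, rose by 1.46 and 1.92. Ermap, an erythroblast membrane protein, had 178, 201 and 225 CPM at 0 h, 319 and 287 CPM at 13 h and 432 and 512 CPM at 24 h, against 291 and 264 CPM in G1E. It passed at both times, with 0.59 at 13 h and 1.23 at 24 h on the log2 scale. Atpif1, an inhibitor of the mitochondrial ATP synthase, had 124 and 123 CPM at 24 h, against 48, 36.6 and 39.1 CPM at 0 h (log2 fold change 1.58 ± 0.14, edgeR adjusted p = 9.32e-06), and shares a start peak with Dnajc8. Pink1, a kinase that marks damaged mitochondria for removal, had 17.3, 8.07 and 6.63 CPM at 0 h, 63.8 and 34.6 CPM at 13 h and 48.8 and 54.7 CPM at 24 h, against 11.5 and 12.9 CPM in G1E. All 4 estradiol libraries lay above the other 5.

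**Figure D4:**
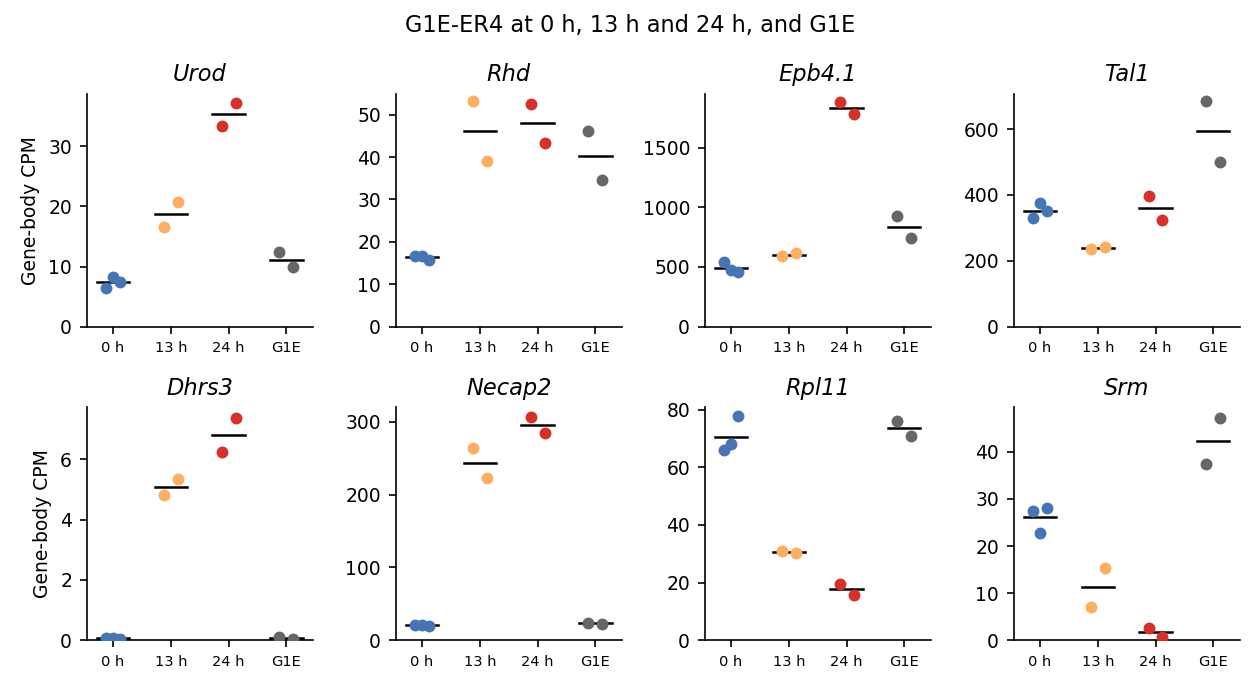
Gene-body CPM in each library (points) and group mean (line) for Urod, Rhd, Epb4.1, Tal1, Dhrs3, Necap2, Rpl11 and Srm at 0 h, 13 h and 24 h of G1E-ER4 and in G1E. Urod, Epb4.1, Dhrs3 and Necap2 stand highest at 24 h, and Rpl11 and Srm lowest.

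Tal1, with its start peak at 114724700, had 331, 374 and 352 CPM at 0 h, 236 and 243 CPM at 13 h and 397 and 325 CPM at 24 h, against 685 and 500.2 CPM in G1E. The 13 h libraries lay below all others, the 24 h libraries overlapped those of 0 h, and the G1E libraries lay highest. It fell by 0.56 ± 0.15 at 13 h (edgeR adjusted p = 0.0152) and did not pass without either of the 13 h libraries, and at 24 h the difference from 0 h was 0.03 ± 0.15 (edgeR adjusted p = 0.859). A strand antisense to Tal1, of the peak at 114734950, had 8.18, 7.3 and 9.03 CPM at 0 h, 0.404 and 0.815 CPM at 13 h and 0.267 and 0.155 CPM at 24 h, against 16.6 and 13.8 CPM in G1E. It fell by 3.72 ± 0.39 at 13 h and by 5.23 ± 0.45 at 24 h on the log2 scale (edgeR adjusted p = 1.04e-06). The sense strand of the same peak had 156 and 162 CPM at 24 h, against 135, 207 and 211 CPM at 0 h, and was not called (edgeR adjusted p = 0.415). At 13 h it had 113 and 108 CPM and fell by 0.74 (edgeR adjusted p = 0.0166). Slc2a1, a glucose transporter (-0.33 at 24 h), and Sdhb, a subunit of mitochondrial complex II (-0.18), did not pass. Mfn2, which fuses mitochondria, passed at 24 h (0.44 ± 0.16, edgeR adjusted p = 0.0368) but not with library totals, where the fold change was 0.06, and not without the 24 h replicate 1 (0.35) or replicate 2 (0.53).

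Of the 4 tested genes of other blood lineages, 2 fell and none rose at either time by edgeR. Over all genes, 20.1% rose and 20.9% fell at 13 h, and 29.0% rose and 30.7% fell at 24 h. With 4 genes, nothing is read from these counts. Lck, a Src-family kinase of T cells, had 8.57, 5.37 and 5.32 CPM at 0 h, 2.98 and 1.8 CPM at 13 h and 0.831 and 1.13 CPM at 24 h, against 17.4 and 21.7 CPM in G1E, a difference of -2.71 ± 0.36 at 24 h over 0 h (edgeR adjusted p = 0.000115). The groups did not overlap, and G1E lay highest. The lymphocyte markers, which do not include these genes, summed to at most 4.11 CPM. Ptafr, the receptor for platelet-activating factor, fell by 2.30 at 13 h and 2.43 at 24 h. It did not pass at 13 h without either 13 h library (-2.47 and -2.11), or at 24 h without the 24 h replicate 2 (-1.97), and the 13 h call of Lck was lost without the 13 h replicate 2 (-1.10). Laptm5, a lysosomal protein of blood cells (-0.37 at 24 h), and Pik3cd, a leukocyte phosphoinositide kinase (-0.05), did not pass.

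Of 13 tested transcription factors, 2 rose and 5 fell at 13 h, where 20.1% of all genes rose and 20.9% fell. At 24 h, 3 rose and 4 fell, near the shares over all genes (29.0% and 30.7%). Id3, an inhibitor of basic helix-loop-helix factors, the class Tal1 belongs to, had 0.844, 0.555 and 0.419 CPM at 0 h, 0.244 and 0.222 CPM at 13 h and 0.0804 and 0.0124 CPM at 24 h, against 0 and 0 CPM in G1E. It was at 0 in G1E and fell by 3.68 ± 0.73 at 24 h (edgeR adjusted p = 0.00197), with the 24 h libraries below all 0 h and 13 h libraries. Runx3, a Runt-family factor, had 0.718, 0.426 and 0.392 CPM at 0 h, 0.0949 and 0.198 CPM at 13 h and 0 and 0.0248 CPM at 24 h, against 0.22 and 0.242 CPM in G1E. It was low in every library, and its 24 h libraries held 2 reads in all. Ybx1, which binds DNA and RNA, fell by 1.35 at 24 h, and Rere, a nuclear receptor corepressor, rose by 1.29.

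Of 13 tested chromatin genes, 4 rose and 4 fell at 13 h, where 20.1% of all genes rose and 20.9% fell. At 24 h, 5 rose and 7 fell, where 29.0% of all genes rose and 30.7% fell. Kdm1a, a histone H3 lysine demethylase that works with GATA factors and Gfi1b, rose by 1.40 ± 0.11 at 24 h, with 312 and 319.8 CPM at 24 h against 118, 119 and 121 CPM at 0 h (edgeR adjusted p = 4.03e-06). Hdac1, a histone deacetylase, had 48.3 and 44.5 CPM at 24 h against 66.4, 72.1 and 71.4 CPM at 0 h, and fell by 0.59 ± 0.13 (edgeR adjusted p = 0.00224). Arid1a, a subunit of the BAF remodelling complex, rose by 0.83 on the log2 scale.

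In the cell cycle and DNA repair list, 4 of 15 rose and 5 fell at 24 h, near the shares over all genes (29.0% and 30.7%), and 4 rose and 8 fell with library totals. Cdkn2c, the inhibitor p18 of cyclin-dependent kinases, rose by 1.90 ± 0.22 at 24 h, with 54.4 and 84.8 CPM at 24 h against 17.7, 22.4 and 15.8 CPM at 0 h (edgeR adjusted p = 5.03e-05). Plk3, a polo-like kinase, had 14.1, 13.4 and 9.03 CPM at 0 h, 8.27 and 5.59 CPM at 13 h and 0.549 and 0.458 CPM at 24 h, against 7.81 and 13.7 CPM in G1E, -4.59 ± 0.40 at 24 h over 0 h (edgeR adjusted p = 8.4e-06). Rcc1, the nucleotide exchange factor of Ran, fell by 2.65, and Nasp, a histone chaperone, fell by 1.40.

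Of 23 tested ribosome and RNA processing genes, 2 rose and 10 fell at 13 h (20.9% of all genes fell), and 4 rose and 16 fell at 24 h (30.7% of all genes fell) by edgeR, with a median of -0.66 at 24 h against -0.07 for all genes (1 rose and 18 fell with library totals). Rpl11, a protein of the large ribosomal subunit, had 65.9, 68.2 and 77.8 CPM at 0 h, 31.1 and 30.2 CPM at 13 h and 19.6 and 15.7 CPM at 24 h, against 76 and 71 CPM in G1E, 4.01-fold lower at 24 h than at 0 h (edgeR adjusted p = 4.48e-06). Ribosomal protein genes have near-identical copies elsewhere, so this value is uncertain if reads were split among them. The hosts of small nucleolar RNAs Snhg12 and Snhg3 fell by 3.35 and 2.97 at 24 h.

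Of 11 tested signalling genes, a list chosen like the others with earlier results known, 7 rose and none fell at 13 h (20.1% of all genes rose). At 24 h, 9 rose and 1 fell (29.0% of all genes rose), with a median of 1.18 (7 rises and 2 falls with library totals). Jak1, a kinase of cytokine receptors, had 192, 173 and 172 CPM at 0 h, 300.0 and 284 CPM at 13 h and 443 and 489 CPM at 24 h, against 265 and 229 CPM in G1E, 1.38 ± 0.12 at 24 h over 0 h (edgeR adjusted p = 6.04e-06). Its start element rose by 1.06. Mknk1, a kinase of the translation factor eIF4E, rose by 2.65 and Stk40, a serine-threonine kinase, by 2.18 on the log2 scale. In this list too the median lay below 0 between the lines, at -0.46 for 0 h over G1E.

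In the metabolism list, 9 of 17 rose and 4 fell at 24 h, against 29.0% and 30.7% of all genes. With library totals, 6 rose and 5 fell, and the median was 0.09 in place of 0.48. Srm, spermidine synthase, had 27.5, 22.9 and 28 CPM at 0 h, 7.12 and 15.3 CPM at 13 h and 2.63 and 0.718 CPM at 24 h, against 37.5 and 47.2 CPM in G1E, -3.97 ± 0.53 at 24 h over 0 h (edgeR adjusted p = 0.000123), and its start element fell by 2.89. Ctps, which makes CTP, fell by 3.05. Eno1, a glycolytic enolase, fell by 2.57, and its near-copy Eno1b makes that value uncertain. Prdx1, a peroxiredoxin, rose by 0.72 at 24 h, but did not pass with library totals, where the fold change was 0.33.

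**Figure D5:**
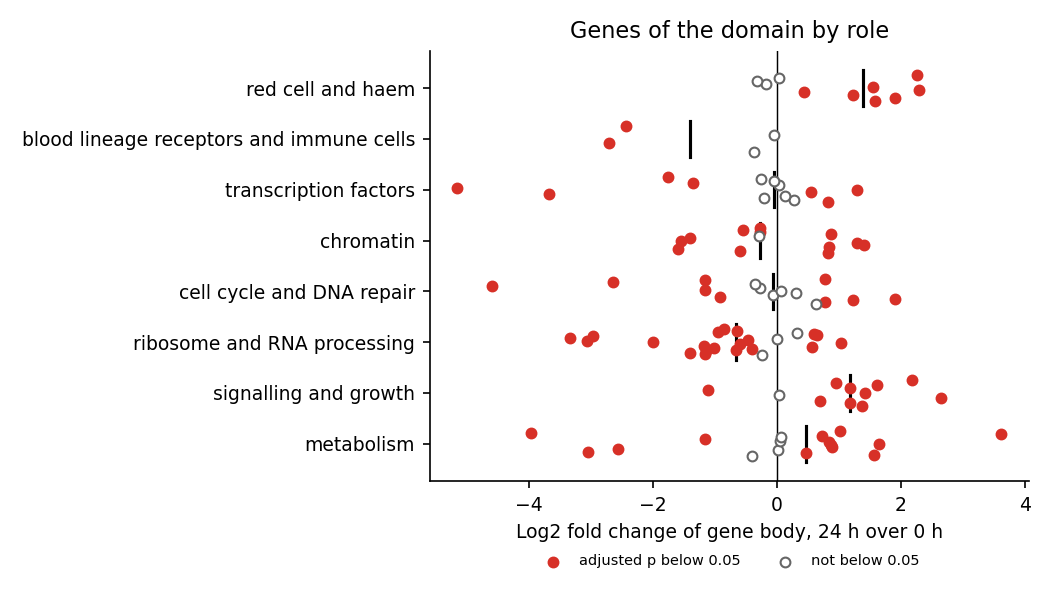
Log2 fold change of gene bodies at 24 h over 0 h (axis in log2 units) for the tested genes of 8 lists by role; each point is a gene, filled red where the edgeR adjusted p is below 0.05, and the black bar is the list's median. The medians run from -1.40 in blood lineage receptors and immune cells to 1.39 in red cell and haem genes. All 8 lists were chosen with earlier results of these data known.

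Outside the lists, the strongest rises began by 13 h. Dhrs3, which reduces retinal, has its start peak at 144480550 and had 0.0756, 0.0775 and 0.055 CPM at 0 h, 4.81 and 5.33 CPM at 13 h and 6.26 and 7.37 CPM at 24 h, against 0.12 and 0.0483 CPM in G1E. Every estradiol library lay far above every other, and the rise was 6.20 ± 0.38 at 13 h and 6.63 ± 0.39 at 24 h (edgeR adjusted p = 9e-07), 98.8-fold at 24 h. Necap2, a protein of clathrin-coated vesicles (start peak at 140629600), had 21.1, 20.6 and 19.9 CPM at 0 h, 264 and 222 CPM at 13 h and 306 and 284 CPM at 24 h, against 24.3 and 22.8 CPM in G1E, 14.4-fold at 24 h (3.84 ± 0.12, edgeR adjusted p = 6.86e-08), and its start element rose by 4.03. Its 13 h and 24 h libraries did not overlap those of 0 h or G1E.

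Fndc5, the precursor of irisin, had 2.81, 1.74 and 2.27 CPM at 0 h, 41.7 and 52.1 CPM at 13 h and 28.2 and 13.8 CPM at 24 h, against 9.12 and 4.52 CPM in G1E. It rose by 4.36 ± 0.39 at 13 h and 3.20 ± 0.37 at 24 h, and the 24 h libraries lay below those of 13 h. Themis2, a signalling adaptor, rose by 4.08 at 13 h and 3.85 at 24 h, and Fam76a by 1.99 and 3.49. Large falls were seen in Lrp8, a receptor for apolipoprotein E and reelin (-2.51 at 13 h and -3.75 at 24 h), and in Ptpru, a receptor tyrosine phosphatase (-2.83 and -3.85). Tmem201, a protein of the inner nuclear membrane, fell too (-2.20 and -3.61).

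Elements away from gene starts showed changes of similar size. The minus strand of a peak between Rbp7 and Ube4b, at 148805700, had 2.54, 1.86 and 3.21 CPM at 0 h, 62.9 and 54.9 CPM at 13 h and 139.5 and 179.9 CPM at 24 h, against 0.762 and 0.596 CPM in G1E, 5.96 ± 0.26 at 24 h over 0 h (edgeR adjusted p = 4.69e-09), while its plus strand rose by 2.64. A peak in Ece1, the endothelin-converting enzyme, at 137485800 had 0.428, 0.124 and 0.113 CPM at 0 h, 8.98 and 11.6 CPM at 13 h and 3.55 and 1.86 CPM at 24 h, against 0.0224 and 0 CPM in G1E. It was highest at 13 h and barely read in G1E. A peak in Man1c1, a mannosidase of the Golgi, at 134156650 had 15.7, 8.45 and 6.86 CPM at 0 h, 1.56 and 2.44 CPM at 13 h and 0.134 and 0.093 CPM at 24 h, against 9.95 and 16.6 CPM in G1E. It fell by 6.45 ± 0.59 at 24 h (edgeR adjusted p = 1.72e-06).

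A peak in Epha2, an ephrin receptor, at 140867800 had 26.1, 19 and 21.4 CPM at 0 h, 14.6 and 13.8 CPM at 13 h and 1.9 and 0.093 CPM at 24 h, against 0.0224 and 0 CPM in G1E. It stood near 0 in G1E, differed by -0.64 at 13 h over 0 h (edgeR adjusted p = 0.447) and fell by 3.80 between 13 h and 24 h (edgeR adjusted p = 0.0114). In Epb4.1, the minus strand of a peak inside the gene at 131594600 was highest at 24 h, with 51.6 and 60.9 CPM at 24 h, against 10.1 and 17.1 CPM at 13 h.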

How the data were processed

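PRO-seq libraries of G1E-ER4 at 0 h, 13 h and 24 h of estradiol and of G1E were analysed from deposited raw counts per gene body and per dREG element, per the file headers, and all sample columns were matched by name. The submitters' processing notes name BWA and mm9, while the counting tool, annotation and use of strand were not given in the sources used here, nor was the aligner's version. The domain, its members and the gene lists were chosen with earlier results of these data known.

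The robust quasi-likelihood test of edgeR 4.0.16 (R 4.3.3) was run on the counts of each whole table, with TMM scaling, the default expression filter (35158 elements and 13825 genes kept) and 1 mean for each of the 4 groups. Benjamini-Hochberg adjustment took in all rows of a table, and the threshold was 0.05. A standard error (SE) is the size of the log2 fold change divided by the root of F. Read ratios were compared with exact permutation tests in scipy 1.17.1. Of the 359 gene names, Eno1b, BC002163 and BC055111 were dropped because their gene rows lie elsewhere. Genes and elements were named by rule: those of 8 lists by role, and the 8 largest rises and falls per time comparison among called rows with a mean count of at least 50 and no overlap between groups, with the largest line differences. From these, and from elements at listed genes, the examples printed were picked after their values were seen. The fits were checked on simulated data. Totals per library set the precision, and reads without molecular identifiers are not independent molecules. Alternatives covered scaling, filters, DESeq2 1.42.0, the edges and leaving out each library. The other columns of the deposited peak table were not tested. Some genes of the domain are not reported here.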

Additional observations from a re-analysis of the deposited data

How the results depend on the processing

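The shift between the lines (difference of element medians, domain minus the rest of chromosome 4, 0 h over G1E) was -0.35 and kept its direction under every alternative: -0.25 with both edges moved 5 Mb inwards, -0.28 with whole peaks only, -0.43 in gene bodies, and, chosen after seeing the data, -0.46 for elements and -0.48 for gene bodies against chromosome 4 below 80 Mb. Leaving out each library gave -0.37 to -0.32. Since this contrast in these libraries chose the domain, the direction was favoured in advance, and these values show only how the size depends on the processing. The same limit applies to the read ratios that follow. The read ratio of 0 h to G1E (-0.33 on the log2 scale) was -0.26 with the narrower edges, -0.40 in gene bodies and, chosen after seeing the data, -0.56 as a median of log2 CPM, and -0.36 to -0.29 without each library. Between libraries whose title numbers start with 18 it was -0.30. Without each library, the ratio of 13 h and 24 h to G1E was -0.26 to -0.23, that of 13 h to 0 h was 0.02 to 0.11 and that of 24 h to 0 h was 0.06 to 0.12. Counts of changed elements ran from 285 to 474 at 13 h (461 with all libraries; 285 and 300 without the 13 h replicates 1 and 2), from 547 to 742 at 24 h (732), and from 32 to 237 at 24 h against 13 h (184; 94 and 72 without the 13 h replicates 1 and 2, 106 and 32 without the 24 h replicates 1 and 2). Counts of changed genes ran from 122 to 178 at 13 h (176), from 205 to 241 at 24 h (239) and from 41 to 108 at 24 h against 13 h (107). Elements changed at 24 h against 13 h numbered 89 (16 higher, 73 lower) with scaling from gene bodies. Library totals moved the split of genes to 85 higher and 89 lower at 13 h (98 and 78 with TMM) and to 16 and 98 at 24 h against 13 h (53 and 54), and that of elements to 24 and 112 at 24 h against 13 h (78 and 106). Scaling from gene bodies gave 272 higher and 125 lower elements at 13 h (254 and 207 with TMM). Under library totals, Ago3 (-0.019), Mtor (-0.35), Pla2g5 (-0.37) and Sfpq (-0.38) turned negative at 24 h over 0 h. Of 254 calls of named genes, 159 held under every alternative. The main fits did not pair libraries by replicate number, and 6 of 12 same-numbered pairs had correlations over 0.1 (-0.08 to 0.52). Those of 0 h with 13 h were 0.52 and 0.51, so the libraries of these times may be paired, which the main fits ignore. With a replicate block, 423, 719 and 233 elements and 133, 210 and 76 genes were called at 13 h, at 24 h and at 24 h against 13 h. This block follows replicate numbers, and its replicate 1 joins title numbers that start with 15 and with 18. It therefore does not check a pairing by title number. Depth limits values of genes with few reads, such as Runx3 and Id3. Except where stated, the cause of a change with a setting was not tested.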
